A study of Mus musculus with 5 samples.

Results

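*Itga2*, *Itga2b* and *Itga11* encode 3 integrin alpha subunits, and they were taken by gene name from the authors' table of 1355 genes called between *Irf8*-OE and control bone marrow-derived dendritic cells (BMDCs). The table was made by a threshold on the same 5 samples, so the difference between the groups chose these genes. Their values are therefore given as a description, without a test. The BMDCs came from 3 *Irf8*-OE and 2 control samples, each from 8-week-old mice described as male. *Irf8*-OE mice carry an *Irf8* transgene behind a stop cassette (*Irf8* CAG-LSL) together with *Itgax* Cre, so the transgene opens in cells that have used the *Itgax* (CD11c) promoter. Controls are wild type in the sample labels and *Irf8* CAG-LSL without Cre in the study. Both groups are on the C57BL/6 background. All cultures received 200 ng/ml Flt3L and 5 ng/ml GM-CSF, were replated on day 9 and were collected on days 15 to 16, and the labels list TNF-α stimulation (20 ng/ml) for all 5 samples. Nothing in the labels says whether the samples of a group came from separate mice.

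Integrins are membrane receptors made of 1 alpha and 1 beta chain, which tie a cell to the extracellular matrix or to other cells and pass signals in both directions. The α2 chain (*Itga2*) pairs with β1 as a collagen receptor of platelets, mast cells, epithelium and some lymphocytes, and the α11 chain (*Itga11*) pairs with β1 as a receptor for fibrillar collagen on fibroblasts. The αIIb chain (*Itga2b*, CD41) pairs with β3 as the fibrinogen receptor of platelets and megakaryocytes, and it is also found on early blood progenitors and on bone marrow-derived mast cells. α2 and α11 carry the inserted I domain that holds collagen, and αIIb does not.

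All 5 samples were compared in normalized counts, that is, reads scaled by a factor of the sample without regard to the length of the gene. The listed genes held 646123 to 1062127 reads per sample, and the full depth was not analysed here. *Irf8* had 7141, 6519 and 6021 normalized counts in *Irf8*-OE and 2835 and 2747 in control. *Xist* had 10772 to 13476 normalized counts in *Irf8*-OE and at most 1.12 in control. In contrast, *Uty*, *Kdm5d*, *Eif2s3y* and *Ddx3y*, 4 genes of the Y chromosome, were at 0 in *Irf8*-OE and had 484 to 1385 normalized counts in control. These values go against the label male for the 3 *Irf8*-OE samples, and sex and genotype cannot be told apart in any value below. Of 16 genes marking dendritic cells, 3 were listed, with *Itgae* and *Tlr11* higher (log2 fold changes of 1.62 and 1.75) and *Cd24a* lower (-1.38, from 10057 ± 522 to 3855 ± 255 normalized counts), and the levels of the others, *Itgax* among them, were not analysed here. The most abundant listed gene in both groups was the mast cell protease gene *Cpa3*, with 17.3% and 17.6% of the listed reads in control and 3.18% to 3.74% in *Irf8*-OE. In bulk cultures, fewer cells of a type and less RNA per cell cannot be told apart.

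The genes lie on different chromosomes of mm10 (GRCm38). *Itga2* (ENSMUSG00000015533) spans chr13:114833081-114932100 on the minus strand, *Itga2b* (ENSMUSG00000034664) spans chr11:102453297-102470122 on the minus strand, and *Itga11* (ENSMUSG00000032243) spans chr9:62677826-62783982 on the plus strand. In GENCODE vM21 each has a longest transcript of 30 exons, spread over 99.0 kb in *Itga2*, 16.8 kb in *Itga2b* and 106 kb in *Itga11*. The exons of a gene, merged over its transcripts, cover 7133, 5454 and 5131 bases. No exon of another annotated gene overlaps them.

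Since the overexpressed factor IRF8 binds DNA beside ETS factors and at interferon response elements, the bases before each start site are shown for reading against these motifs. They are RefSeq promoter windows of GRCm38.p6, 5′ to 3′ on the gene's strand, for all 3 genes. The capitals mark the letters GGAANNGAAA (ETS-IRF composite element) and GAAANNGAAA (interferon-stimulated response element). Bases that GENCODE vM21 places in an untranslated region of a coding transcript were left out, while an exon of a transcript without a coding sequence was kept in the *Itga2b* stretch.
*Itga2*, chr13:114932101-114932350, minus strand: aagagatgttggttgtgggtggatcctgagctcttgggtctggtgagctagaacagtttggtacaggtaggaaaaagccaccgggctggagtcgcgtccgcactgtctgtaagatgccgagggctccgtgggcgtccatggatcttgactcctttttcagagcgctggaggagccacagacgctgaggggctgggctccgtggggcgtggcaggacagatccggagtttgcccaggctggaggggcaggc
*Itga2b*, chr11:102469884-102470133, minus strand: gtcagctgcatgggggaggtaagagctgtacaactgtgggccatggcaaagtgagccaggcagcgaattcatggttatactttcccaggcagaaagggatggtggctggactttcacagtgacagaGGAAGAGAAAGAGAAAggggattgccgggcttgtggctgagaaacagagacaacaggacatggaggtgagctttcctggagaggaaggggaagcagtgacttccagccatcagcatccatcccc
*Itga11*, chr9:62677605-62677825, plus strand: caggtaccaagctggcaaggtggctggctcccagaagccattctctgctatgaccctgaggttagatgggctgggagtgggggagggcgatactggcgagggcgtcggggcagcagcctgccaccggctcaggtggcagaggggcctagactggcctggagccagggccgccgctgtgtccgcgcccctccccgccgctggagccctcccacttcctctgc

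The *Itga2b* window held both motifs on the sense strand, in 1 run where they overlap. GGAAGAGAAA lay at positions -124 to -115 from the RefSeq start (chr11:102469998-102470007) and GAAAGAGAAA at -118 to -109 (chr11:102469992-102470001). The *Itga2* and *Itga11* windows held neither on either strand. Of 32851 windows of 300 bases, 2.71% held the first motif and 3.44% the second on either strand. The letters of the GATA elements AGATAA and TGATAA and of the RUNX element TGTGGT were in none of the 3 windows, against 11.2%, 9.05% and 16.8% of all windows. A match describes the letters of the window and not binding, and a missing match covers only these windows. The RefSeq start of *Itga2b* lies 239 bases inside the gene as GENCODE draws it, and 1 GENCODE transcript without a coding sequence has an exon over the motifs.

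*Itga2b* was lower in *Irf8*-OE and was by far the most abundant of the 3 genes. It had 2730, 2473 and 2378 normalized counts in *Irf8*-OE and 5325 and 5138 in control. The groups did not overlap, as in 100% of the 1355 listed genes, so that a lack of overlap sets none of the 3 genes apart from the rest of the table. The mean was 2527 ± 182 (SD, n = 3) in *Irf8*-OE against 5231 ± 132 (SD, n = 2) in control, 2.07-fold lower, with a log2 fold change of -1.05 (standard error 0.07, on log2(normalized counts + 1)). This is close to the table's threshold of 1 on the log2 scale, and 522 of the 558 listed genes that were lower in *Irf8*-OE had a larger change. With between 2368 and 5354 reads per sample, counting error was 1.95% in *Irf8*-OE and 1.41% in control, against a spread between samples of 7.20% and 2.53% of the mean. After quantile normalization over the listed genes, *Itga2b* had a log2 fold change of -0.62, below the threshold of 1.

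*Itga2*, the collagen-binding α2 chain, was lower in *Irf8*-OE and scarce in both groups. It had 13.4, 23.3 and 14.1 normalized counts in *Irf8*-OE, from 14, 25 and 14 reads, and 60.7 and 50.9 in control, from 54 and 53 reads. The second *Irf8*-OE sample was the highest of its group and still under both controls. Its exact Poisson 95% interval, which covers counting error only, ran from 15.1 to 34.5 normalized counts, and that of the lower control from 38.1 to 66.5. The mean was 16.9 ± 5.55 (SD, n = 3) against 55.8 ± 6.95 (SD, n = 2), 3.29-fold lower, with a log2 fold change of -1.70 (standard error 0.31). The spread between the *Irf8*-OE samples was 32.8% of their mean where counting alone gives 23.8%, and between controls 12.5% where counting gives 13.7%. Of the 3 genes, *Itga2* has the largest standard error.

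*Itga11*, the fibroblast collagen receptor chain, went the other way. It had 95.9, 87.8 and 88.4 normalized counts in *Irf8*-OE, from 88 to 100 reads, and 13.5 and 19.2 in control, from 12 and 20 reads. Every *Irf8*-OE sample was above both controls, and the 3 *Irf8*-OE samples lay close together. The mean was 90.7 ± 4.50 (SD, n = 3) against 16.3 ± 4.03 (SD, n = 2), 5.55-fold higher, with a log2 fold change of 2.42 (standard error 0.22). Counting error alone was 10.3% in *Irf8*-OE and 25.0% in control, and the spread between samples, at 4.96% and 24.7%, was no larger than that. The controls, with the fewest reads of any group here, have the wider relative error. The standard error of 0.22 rests on the spread between samples. DESeq2, run on the reads, gave a larger one of 0.38.

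**Figure D1:**
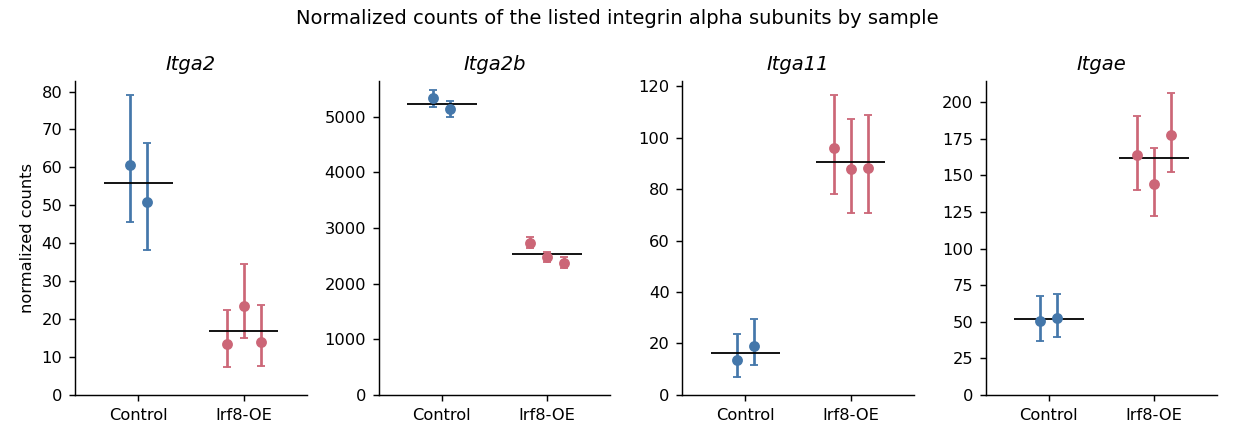
Normalized counts (y axis, from 0, a separate scale per gene) of *Itga2*, *Itga2b*, *Itga11* and *Itgae* in the 2 control and 3 *Irf8*-OE samples. Points are samples, bars are exact Poisson 95% intervals for counting error only, and lines are group means. *Itga2* and *Itga2b* are lower in *Irf8*-OE, *Itga11* and *Itgae* are higher, and no sample crosses into the other group, which holds for 100% of the listed genes.

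Among all 18 integrin alpha genes, 4 were listed, which adds *Itgae* (CD103, the αE chain that binds E-cadherin and is used to mark type 1 conventional dendritic cells) to the 3 genes. All 4 passed the thresholds here (limma, adjusted p of 0.05 and absolute log2 fold change of 1), as did 99.1% of all listed genes, so the count says nothing about integrins. *Itgae* had 164, 144 and 178 normalized counts in *Irf8*-OE and 50.6 and 52.8 in control, with a log2 fold change of 1.62 (standard error 0.15). None of the 8 integrin beta genes was listed. The beta chains that pair with α2, αIIb and α11, *Itgb1* and *Itgb3*, were therefore not analysed here, and no statement on the assembled receptors can be made.

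Levels were compared between genes per kilobase of gene length. In control, *Itga2b* stood at 959 ± 24.3 (SD, n = 2) normalized counts per kb, *Itgae* at 11.3 ± 0.340, *Itga2* at 7.82 ± 0.974 and *Itga11* at 3.18 ± 0.786. In *Irf8*-OE the order was *Itga2b* at 463 ± 33.3 (SD, n = 3), *Itgae* at 35.3 ± 3.73, *Itga11* at 17.7 ± 0.877 and *Itga2* at 2.37 ± 0.778. The collagen-binding chains thus changed places, and no sample of a neighbour overlapped in either order. The counting intervals did overlap between *Itgae* and *Itga2* in control, where they ran from 8.05 to 14.8 for *Itgae* and from 6.39 to 11.1 for *Itga2* per kb in the first sample. Between *Itga2* (5.34 to 9.33 per kb) and *Itga11* (2.28 to 5.78) they overlapped in the second control sample but not in the first. Within a sample, where size factors cancel, the level of *Itga11* per kb was 0.309 and 0.525 times that of *Itga2* in the controls and 5.23 to 9.93 times in *Irf8*-OE. *Itga2b* held 97.8% and 97.7% of the summed level per kb of the 4 listed alpha genes in control and 88.3% to 89.9% in *Irf8*-OE. By level per kb it ranked 69 of 1355 listed genes in control and 100 in *Irf8*-OE. *Itga2* moved from rank 891 to 1251 and *Itga11* from 1044 to 781.

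**Figure D2:**
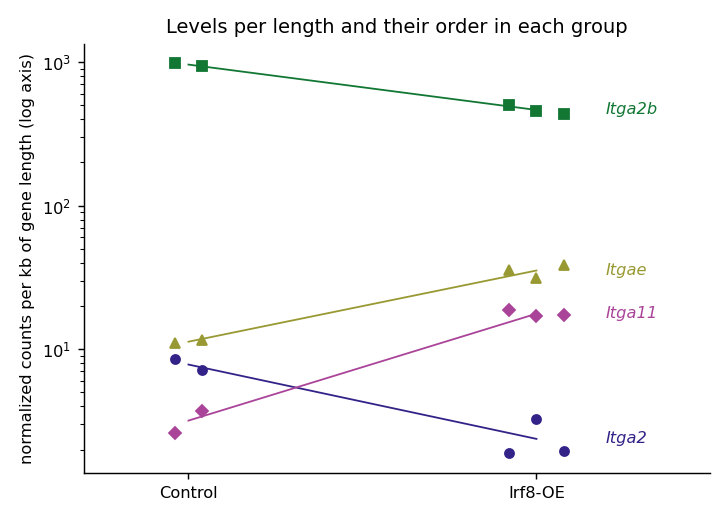
Normalized counts per kb of gene length (log axis) of the 4 listed integrin alpha genes in control and *Irf8*-OE. Points are samples and lines join group means. *Itga2b* is on top in both groups, and the lines of *Itga2* and *Itga11* cross.

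The gene lists that follow hold cell types that express these integrins, and each is a count over a table chosen on the same contrast, where 58.1% of the listed genes were called higher and 41.0% lower. The median log2 fold change of all listed genes was 1.15. Of 21 genes marking mast cells and basophils, 15 were listed, 13 called lower and 2 higher in *Irf8*-OE, with a median of -2.29. *Cpa3* fell from 177303 ± 3068 to 22297 ± 2007 normalized counts (SD, n = 2 and 3), *Tpsb2*, a mast cell tryptase, from 28033 ± 338 to 4707 ± 288, and *Il1rl1*, the IL-33 receptor, from 22779 ± 38.9 to 3483 ± 320. *Kit*, the stem cell factor receptor, fell least of the 13, with a log2 fold change of -1.47. The 2 higher genes were *Mcpt8* and *Prss34*, proteases of basophils, named after their values were seen. The summed level of the list was 264594 to 268975 normalized counts in control and 41130 to 45774 in *Irf8*-OE, and its part in the lower *Itga2b* and *Itga2* was not tested. All 13 lower genes fell by more than *Itga2b* on the log2 scale, and 11 of them by more than *Itga2*.

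Platelet and megakaryocyte genes, the other known setting of αIIb, mostly ran opposite to *Itga2b*. Of 13 genes, 8 were listed, 7 called higher and 1 lower, with a median log2 fold change of 2.46. *Pf4*, a platelet chemokine, rose from 1179 ± 86.0 to 2503 ± 72.3 normalized counts, *Ppbp*, another, from 67.3 ± 9.34 to 404 ± 36.5, and *Selp* (P-selectin) from 39.4 ± 8.05 to 226 ± 28.7. *Gp1ba*, a subunit of the von Willebrand factor receptor, was the exception and fell from 376 ± 34.6 to 166 ± 17.4. The summed level of the list was 1671 to 1786 normalized counts in control and 3561 to 3772 in *Irf8*-OE. Of the 11 transcription factors of megakaryocyte and mast cell genes, 4 were listed. *Gata2*, *Gata1* and *Gfi1b* were called lower, with log2 fold changes of -1.61, -1.19 and -1.05, and *Ets1* higher, with 1.33.

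Within a sample, *Itga2b* was higher in *Irf8*-OE relative to the summed mast cell list and lower relative to the summed platelet list. It had 19.1 and 20.1 per 1000 normalized counts of the listed mast cell genes in control and 52.0 to 66.4 in *Irf8*-OE. Against the listed platelet genes it had 2982 and 3075 per 1000 in control and 630.5 to 767 in *Irf8*-OE. Its change thus lay between those of the summed lists, and the groups did not overlap in either ratio. *Gp1ba* of the platelet list fell by more (log2 fold change -1.18) than *Itga2b* (-1.05), and *Mcpt8* and *Prss34* of the mast cell list rose. Neither ratio of *Itga2b* thus holds against every gene in its sum. *Itga2* had 0.189 and 0.229 per 1000 of the mast cell list in control and 0.307 to 0.536 in *Irf8*-OE. Against the platelet list it had 30.4 and 34.0 per 1000 in control and 3.73 to 6.51 in *Irf8*-OE. In control most of the mast cell sum is *Cpa3*, whose log2 fold change of -3.00 is beyond that list's median of -2.29. *Kit* (-1.47) and *Gata2* (-1.61) of the same list fell by less than *Itga2* (-1.70). The higher ratio of *Itga2* thus holds against the sum and not against every gene in it. *Itga11* had 7.55 and 11.5 per 1000 of the platelet list in control and 23.4 to 26.9 in *Irf8*-OE, but most of that sum is *Pf4*, whose log2 fold change of 1.09 is under the list's median of 2.46. Against *Gp9*, a platelet glycoprotein of the same list, *Itga11* overlapped between the groups, with 1333 and 2000 per 1000 in control and 1158 to 1880 in *Irf8*-OE. Its log2 fold change of 2.42 is close to the median of the platelet list.

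Collagens I to VI and XI, taken here as ligands of α2 and α11, were higher in *Irf8*-OE wherever they were listed. Of their 18 genes, 10 were listed, and all 10 were called higher, with a median log2 fold change of 1.94. Collagens outside this choice went both ways, for example *Col24a1* higher (1.22) and *Col15a1* lower (-1.39). *Col1a2* rose from 1009 ± 34.0 to 3873 ± 245 normalized counts, *Col1a1* from 318 ± 44.9 to 2794 ± 286, *Col5a2* from 658 ± 6.48 to 1460 ± 43.9 and *Col5a1* from 383 ± 53.9 to 1247 ± 91.0. α11 binds the fibrillar collagens built from these chains. *Itga11* had 4.89 and 6.84 per 1000 normalized counts of the listed collagen genes in control and 7.88 to 8.53 in *Irf8*-OE. The groups did not overlap, but the counting interval of the second control, from 20 reads, spans the gap between them. *Col1a1* (log2 fold change 3.13), *Col3a1* (2.87) and *Col6a2* (2.56) rose more than *Itga11* (2.42), and the other listed collagens rose less. The higher ratio of *Itga11* thus holds against the sum and not against every gene in it. Relative to the summed collagen genes *Itga2* was lower, with 18.1 and 22.0 per 1000 in control and 1.12 to 2.09 in *Irf8*-OE.

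Of 14 genes marking fibroblasts and stromal cells, 7 were listed, with 6 called higher, 1 lower and a median log2 fold change of 1.59. *Lox*, a collagen cross-linking enzyme, *Sparc*, a matrix glycoprotein, and *Mmp2*, a gelatinase, had log2 fold changes of 1.07, 1.58 and 1.59, and the leptin receptor gene *Lepr* had -1.66. The summed level of the list was 3869 to 3981 normalized counts in control and 8759 to 9681 in *Irf8*-OE, and its part in the higher *Itga11* was not tested. *Itga11* per 1000 normalized counts of these genes was 3.39 and 4.96 in control and 9.13 to 10.9 in *Irf8*-OE. Most of that sum is *Lox* and *Sparc*, which rose less than *Itga11* (log2 fold change 2.42). Of the same list *Postn* rose more (3.16) and *Cxcl12* about as much (2.32), while the others rose less or fell.

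**Figure D3:**
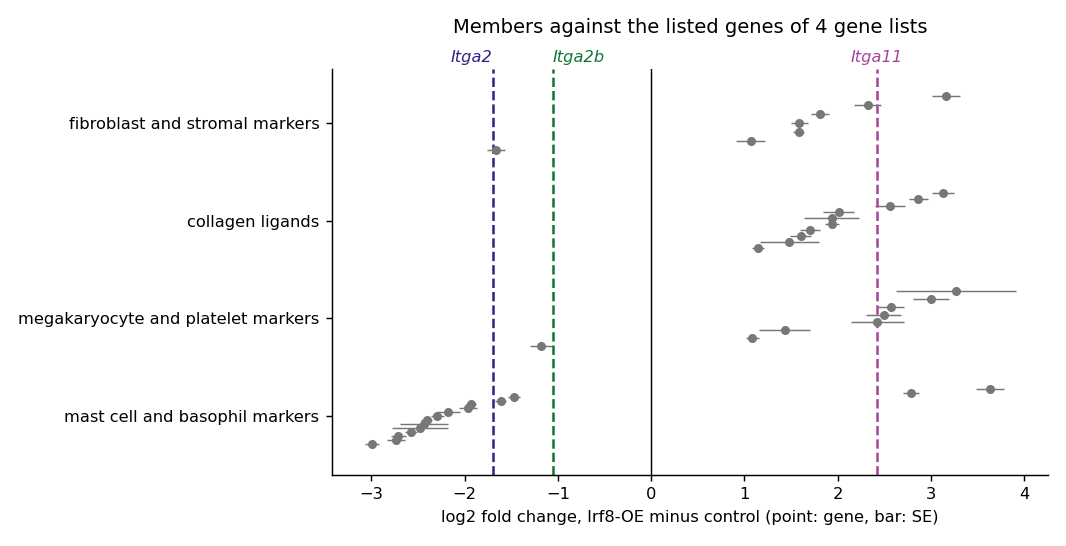
Log2 fold change, *Irf8*-OE minus control (x axis), of the listed genes in 4 gene lists. Points are genes, bars are standard errors, and dashed lines mark *Itga2*, *Itga2b* and *Itga11*. The *Itga2b* line lies on the zero side of all 13 lower mast cell genes, and the *Itga11* line lies among the collagens and the platelet genes that rose.

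**Figure D4:**
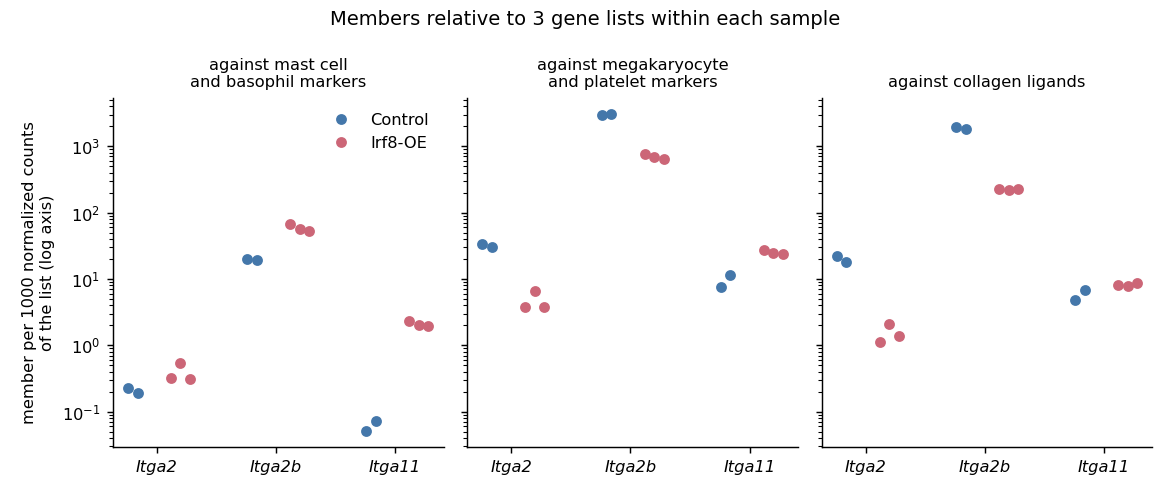
*Itga2*, *Itga2b* and *Itga11* per 1000 normalized counts of the listed mast cell, platelet and collagen genes (log axis), in each of the 2 control and 3 *Irf8*-OE samples. Against the summed mast cell list all 3 genes are higher in *Irf8*-OE, and against the summed platelet and collagen lists *Itga2* and *Itga2b* are lower and *Itga11* is higher. Most of the platelet sum is *Pf4*, and in control most of the mast cell sum is *Cpa3*. For *Itga11* against the collagens, the counting interval of the second control spans the gap between the groups.

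Other receptors and partners were sparse in the table. Of 6 other collagen receptors, *Mrc2*, *Ddr1* and *Gp6* were listed and called higher, with log2 fold changes of 1.14, 1.07 and 3.27. *Gp6*, the platelet collagen receptor, had 34.5, 49.5 and 52.2 normalized counts in *Irf8*-OE and 1.12 and 9.60 in control. Of 13 genes that regulate the switch of integrins to the binding state, 2 were listed and higher. *Tln2*, a talin that grips beta chain tails, had a log2 fold change of 1.45, and *Rasgrp2*, the exchange factor that turns on RAP1 in platelets, had 1.05. Of 18 focal adhesion and integrin signalling genes, *Ilk*, the integrin-linked kinase, was listed, with a log2 fold change of 1.69. None of the 7 ligand genes of αIIb, such as fibrinogen and fibronectin, was listed.

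Likeness of pattern was measured as the root mean square difference over the 5 samples of log2(normalized counts + 1), centred on each gene's mean, among 1101 listed genes. The median difference was 1.45 for *Itga2*, 1.12 for *Itga2b* and 0.700 for *Itga11*. Nearest to *Itga2b* were *Nkain1* (0.0457), *Prnp* (0.0543), *St3gal2* (0.0546), *Csf2rb2* (0.0560) and *Pomt1* (0.0569). *Prnp* encodes the prion protein and *Csf2rb2* a beta chain of the IL-3 receptor. Nearest to *Itga11* among the genes reported here were *Cxcl12* (0.0592), *Selp* (0.0801), *Wnt10b* (0.0835) and *Trp53i11* (0.116). Like *Itga11*, each of these 4 had its lower control in the first control sample. *Cxcl12* is a stromal chemokine, *Selp* is in the platelet list, and *Wnt10b* was at or below the floor of 3 reads in both controls. Nearest to *Itga2* were *Mctp2* (0.103), *Clec4b2* (0.133), *Fam124a* (0.172), *Amigo2* (0.190) and *Ica1l* (0.191). Each of them was highest within *Irf8*-OE in the second sample, as *Itga2* was. With 5 samples in 2 groups, the group difference makes up most of any such pattern. The nearest genes were chosen over the same 5 samples, so an order shared within a group is part of that choice.

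**Figure D5:**
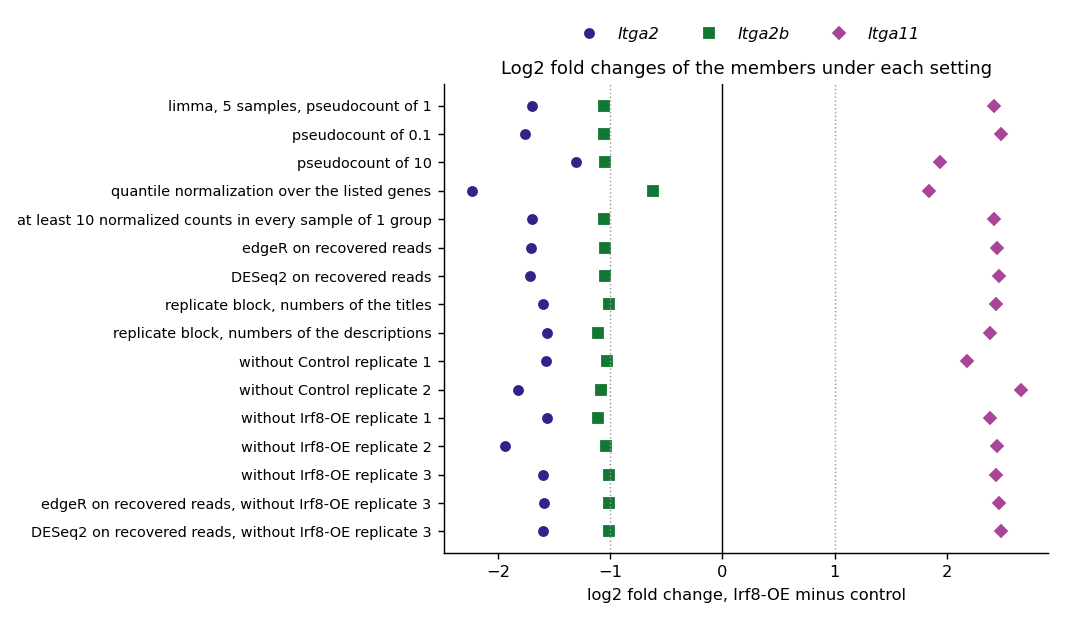
Log2 fold change, *Irf8*-OE minus control (x axis), of *Itga2*, *Itga2b* and *Itga11* under each setting (y axis), with dotted lines at the threshold of 1 in both directions. Each gene keeps its sign in every setting shown, and *Itga2b* crosses the dotted line after quantile normalization, at -0.62.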

How the data were processed

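RNA-seq libraries of 3 *Irf8*-OE and 2 control BMDC samples were analysed from a table that the authors deposited. Its signal values are normalized counts, made by the authors as reads divided by 1 size factor per sample. The submitters' processing notes name fastp, HISAT2 2.0.5, featureCounts 1.5.0-p3, DESeq2 1.20.0, edgeR 3.22.5 and mm10, without roles. The table holds only genes that the authors had called. The authors' own fold changes, p-values and group means were not used. Gene lengths are another deposited column, in bases. Of 1355 gene IDs, 1354 were in GENCODE vM21 and 1313 had the same start and end there.

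Samples were grouped by title, and columns were matched by description. Values were whole multiples of 1 step per sample in 100% of cases (within 1e-06 of the number of reads), which gave back reads. In the third *Irf8*-OE sample 1 read is 1.004 normalized counts, too near 1 for an automated check, so tests on reads were also made without it. Fold changes and standard errors came from limma 3.58.1 (R 4.3.3, empirical Bayes with trend, no covariates) on log2(normalized counts + 1), which understates changes of scarce genes. Genes were called at the study's cut-offs, a log2 fold change beyond 1 in either direction and a Benjamini-Hochberg adjusted p under 0.05. The adjustment here ran over the listed genes only, which the authors had already called, so it is not the study's own. The p-values are not printed because the genes were chosen on this contrast. limma, edgeR 4.0.16 and DESeq2 1.42.0 were tested on simulated counts. Intervals for reads are exact Poisson (scipy 1.17.1).

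The 3 genes and all gene lists were chosen with earlier results of these data known, and the motifs after the promoters were seen. Named genes are the 3 genes, the other listed integrins, the 4 most abundant listed genes of each list, the 5 listed genes of nearest pattern (mean of at least 10 normalized counts, no predicted-gene names) and *Irf8*, *Xist* and Y-linked genes. Of the genes these rules cover, 2 are not reported here. Other genes were named after their values were seen. Promoters are RefSeq windows (GRCm38.p6) of 250 bases before and 50 after the start, matched for 3 of 3 genes.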

Additional observations from a re-analysis of the deposited data

How the results depend on the processing

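*Itga2* and *Itga2b* stayed lower and *Itga11* stayed higher in *Irf8*-OE under every alternative run. Quantile normalization over the listed genes moved the log2 fold change of *Itga2* to -2.23, of *Itga2b* to -0.62 and of *Itga11* to 1.84, while the median of all listed genes moved from 1.15 to 0.766. A pseudocount of 10 gave -1.30 for *Itga2* and 1.94 for *Itga11*, which shrinks scarce genes by construction. Leaving out 1 sample at a time, the values ranged from -1.94 to -1.56 for *Itga2*, from -1.11 to -1.01 for *Itga2b* and from 2.18 to 2.66 for *Itga11*. The cause of the quantile shift was not tested. A pseudocount of 0.1, a filter that asked all samples of either group to reach 10 normalized counts, and edgeR or DESeq2 on recovered reads, with or without the third *Irf8*-OE sample (chosen after seeing the data), moved each value by less than 1 SD. With a replicate block, numbered by the titles or the descriptions, *Itga2b* was at -1.01 or -1.11, *Itga2* at -1.59 or -1.56 and *Itga11* at 2.44 or 2.38. Deviations of samples with the same number correlated between -0.0207 and 0.0275 over 1355 genes. The deviations of 2 controls from their mean mirror each other, so these correlations cannot show whether the numbers pair the samples. The 4 listed integrins remained called under every alternative except quantile normalization, with 3 called. Of the listed genes, 1343 were called, and between 1023 and 1354 under the alternatives. The few reads of *Itga2* and of *Itga11* in control limit the precision of both folds. The standard errors of *Itga2*, *Itga2b* and *Itga11* were 0.31, 0.07 and 0.22 in limma. DESeq2 on recovered reads gave larger ones, at 0.45, 0.097 and 0.38. Without the third *Irf8*-OE sample the DESeq2 standard errors were 0.55, 0.095 and 0.48.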

Other observations

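Over the listed genes with a RefSeq promoter window, GAAANNGAAA was in 46 of 645 windows of genes called higher in *Irf8*-OE (7.13%) and in 18 of 489 windows of genes called lower (3.68%), beside 3.44% of all windows. GGAANNGAAA was in 14 (2.17%) and 15 (3.07%) of them, beside 2.71% of all. *Itga2b*, which was lower, is among the lower genes with either motif. A gene can have several windows, and no test was made.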
